A study of Mus musculus with 6 samples.

Results

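Cytotoxic T lymphocytes kill by releasing perforin from lysosome-related granules and by displaying death ligands on their surface, and 10 genes of these 2 routes were followed here through the probe sets annotated to exactly 1 gene. They comprise 3 killing molecules (*Prf1*, *Fasl*, *Tnfsf10*), 4 genes of the granule's content and membrane (*Srgn*, *Ctsw*, *Nkg7*, *Lamp1*) and 3 genes of granule release (*Rab27a*, *Unc13d*, *Stx11*). All 10 were measured, by 18 of the 45037 probe sets tested, and they are 10 of 18193 genes. They are grouped by function, and the rule that selects their probe sets uses the annotation and no measured value. The genes themselves were chosen with earlier results of these data known, so their counts set beside all genes are descriptions and not tests.

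RNA was measured in CD8 T cells of 8 to 12 week old C57BL/6 mice that carry the P14 T cell receptor, a transgene recognising the gp33-41 peptide of LCMV. Splenocytes received the peptide for 48 hours and a retrovirus 18 hours after its addition, and then grew in IL-2, for 48 hours by the labels and for longer by the legend of the study's gene table. The control cells carried an empty vector with GFP (evGFP) and the other cells a fusion of GFP with KLF2 (GFP-KLF2), a transcription factor that T cells normally lose on activation, so that the comparison asks what maintained KLF2 changes in activated cells. GFP-positive cells of both kinds were sorted, and 3 biological replicates per group, 6 arrays in all, were hybridised to Affymetrix mouse expression arrays. Expression of the fusion was driven by the viral vector and not by the *Klf2* locus, the cells were cultured in vitro, and the untransduced cells of the same cultures were not analysed here. The *Klf2* probe set reads a stretch of the transcript that the construct lacks, so it does not check the labels: it read 10.99, 10.37 and 8.80 in evGFP and 9.83, 9.67 and 8.74 in GFP-KLF2 replicates 1, 2 and 3 (log2 intensity), with an adjusted p of 0.552.

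As background, perforin forms pores in the target cell membrane through which granule enzymes enter. Until release it is stored in acidic granules together with granzymes and cathepsins on a matrix of serglycin, a proteoglycan whose glycosaminoglycan chains bind the positively charged cargo. Granules are docked at the immunological synapse by Rab27a, made ready for fusion by Munc13-4 (*Unc13d*) and fused with the help of the SNARE protein syntaxin 11 (*Stx11*), and inherited loss of perforin or of either of the last pair causes familial haemophagocytic lymphohistiocytosis. Fas ligand and TRAIL (*Tnfsf10*) act without a membrane pore, by engaging death receptors that activate caspases.

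With maintained KLF2, perforin transcript was 5.73-fold higher and 5 further members rose: *Fasl*, *Stx11*, *Unc13d*, *Nkg7* and *Ctsw*. Only *Lamp1* of the 10 fell, and *Tnfsf10*, *Srgn* and *Rab27a* did not pass the test (limma, adjusted p under 0.046). Over all genes tested 6.22% rose and 8.35% fell by the same rule. The rise was at least 2-fold for 3 members, *Prf1*, *Stx11* and *Fasl*, against 2.23% of all genes. These 3 also appear in the study's own gene table, which was made from these arrays, so that their direction is not independent evidence. With the replicate number as a block, which the pairing of the arrays calls for, *Srgn* and *Rab27a* passed as well and 8 members rose and 1 fell, against 8.58% and 12.1% of all genes. The median log2 fold change of the 10 members was 0.67 and that of all genes -0.01.

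The sequence before the start of the gene is shown for the 3 members that rose at least 2-fold and for *Lamp1*, the member that fell, because KLF proteins are known to bind CACCC elements. Windows of 250 bases upstream of the annotated start (RefSeq, GRCm38.p6) are printed 5′ to 3′ in the direction of the gene. In the first 3, capitals mark CACCC or its reverse complement GGGTG. They lie at chr10:61297586-61297835 (plus strand, *Prf1*), chr1:161788496-161788745 (minus strand, *Fasl*) and chr10:12964260-12964509 (minus strand, *Stx11*).
Prf1: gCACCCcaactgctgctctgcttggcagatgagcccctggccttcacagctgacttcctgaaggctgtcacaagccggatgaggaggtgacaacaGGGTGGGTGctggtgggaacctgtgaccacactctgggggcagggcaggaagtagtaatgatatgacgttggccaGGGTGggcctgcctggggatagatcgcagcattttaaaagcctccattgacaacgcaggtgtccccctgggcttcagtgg
Fasl: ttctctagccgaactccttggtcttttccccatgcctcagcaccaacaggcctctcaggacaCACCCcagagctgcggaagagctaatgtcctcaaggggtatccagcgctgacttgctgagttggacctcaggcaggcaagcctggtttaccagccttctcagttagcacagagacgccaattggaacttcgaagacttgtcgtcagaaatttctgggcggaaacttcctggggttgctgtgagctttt
Stx11: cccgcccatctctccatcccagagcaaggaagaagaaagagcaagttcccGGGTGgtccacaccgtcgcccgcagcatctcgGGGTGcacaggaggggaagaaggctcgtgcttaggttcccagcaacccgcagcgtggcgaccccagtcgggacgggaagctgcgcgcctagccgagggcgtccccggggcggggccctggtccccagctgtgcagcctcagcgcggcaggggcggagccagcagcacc

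The *Prf1* window held the motif 4 times, with 2 of the copies overlapping by a base, *Fasl* held it once and *Stx11* 2 times. Of all 32851 annotated windows of this length, 52% held it and 2.14% held it 4 or more times. The cut of 4 equals the count in the *Prf1* window, so this share is a description and not a test. A window was found for 8 of the 10 members and none for *Unc13d* and *Ctsw*. In the 10 windows of these 8 genes, 9 held the motif, among them those of *Srgn*, *Rab27a* and *Lamp1*, and the only window without it was that of *Tnfsf10*. A match of letters is a description and does not show that a factor binds there.

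The *Lamp1* window (chr8:13158911-13159160, plus strand) differed in content. Capitals here mark CACGTG, the palindromic E-box read by basic helix-loop-helix factors, a motif that was searched only after this window had been seen.
Lamp1: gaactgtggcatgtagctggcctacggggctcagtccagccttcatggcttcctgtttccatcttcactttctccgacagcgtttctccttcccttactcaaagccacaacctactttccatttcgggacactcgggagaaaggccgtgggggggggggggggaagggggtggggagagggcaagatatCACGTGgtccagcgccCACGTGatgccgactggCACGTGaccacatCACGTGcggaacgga

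It held CACGTG 4 times near its end, while 6.02% of all windows held it at all and 7 of them (0.0213%) held it 4 or more times. The cut of 4 equals the count in this window, so the share is a description and not a test. Of the other members' windows only 1 of the 2 *Rab27a* windows held it, in a single copy.

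Perforin showed the largest change of the 10. The *Prf1* probe set 1451862_a_at read 6.57, 6.63 and 7.11 in evGFP replicates 1, 2 and 3 and 10.05, 8.68 and 9.14 in GFP-KLF2 replicates 1, 2 and 3, as log2 intensity. All GFP-KLF2 arrays lay above all evGFP arrays, and the GFP-KLF2 arrays were more spread than the controls, with replicate 1 the highest. The means were 6.77 ± 0.30 and 9.29 ± 0.70 (SD, n = 3 arrays), the log2 fold change was 2.52 (SE 0.33, 95% interval 1.76 to 3.28) and the adjusted p by limma 0.00442. In bulk samples such as these, a different share of cells that express a gene and a different amount of its RNA per cell cannot be told apart. Arrays with the same replicate number differed by 3.48, 2.05 and 2.03, and with GFP-KLF2 replicate 1 left out the log2 fold change was 2.14 (adjusted p = 0.00646).

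A dimmer *Prf1* probe set, 1450335_at, did not show this rise. It read 5.92, 6.00 and 5.87 in evGFP and 5.77, 5.89 and 6.04 in GFP-KLF2 replicates 1, 2 and 3, a log2 fold change of -0.03 (95% interval -0.25 to 0.18, adjusted p = 0.894). These values lie close to the median probe set of the arrays, which was at 5.64 to 5.67, and the groups overlapped. When both probe sets were averaged, the log2 fold change of *Prf1* was 1.24 (adjusted p = 0.00394). Which part of the transcript each probe set reads was not examined.

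Fas ligand (*Fasl*) rose by both of its probe sets. The brighter, 1449235_at, read 8.75, 9.23 and 9.31 in evGFP and 10.21, 10.40 and 10.04 in GFP-KLF2 replicates 1, 2 and 3. The groups did not overlap, and the lowest control was replicate 1. The means of 9.10 ± 0.31 and 10.22 ± 0.18 (SD, n = 3) gave a log2 fold change of 1.12 (2.17-fold, SE 0.16, 95% interval 0.74 to 1.50, limma adjusted p = 0.00705). The dimmer probe set, 1418803_a_at, rose by 0.91 (adjusted p = 0.0204), from 7.80, 8.25 and 8.54 to 9.11, 9.27 and 8.94. That call was lost without evGFP replicate 2 (adjusted p = 0.0657), GFP-KLF2 replicate 1 (0.0664) or GFP-KLF2 replicate 2 (0.0712), whereas the brighter probe set passed whichever array was left out (0.00995 to 0.03). With all arrays and the replicate block the dimmer probe set passed (0.0153).

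TRAIL did not follow the other killing molecules. Its brightest *Tnfsf10* probe set, 1439680_at, read 7.21, 7.39 and 7.82 in evGFP and 7.27, 6.94 and 7.57 in GFP-KLF2 replicates 1, 2 and 3. The groups overlapped, with replicate 3 the highest of each, and the log2 fold change was -0.22 (95% interval -0.68 to 0.24, adjusted p = 0.586). Log2 fold changes of the other probe sets were -0.36 for 1420412_at (adjusted p = 0.421) and -0.40 for 1459913_at (adjusted p = 0.379, and 0.0685 with the replicate block). The value of the brightest was -0.05 without evGFP replicate 3, -0.06 without GFP-KLF2 replicate 2, -0.35 without evGFP replicate 1 and -0.37 without GFP-KLF2 replicate 3, none of which passed. None of the 3 passed, and the interval of the brightest leaves out a 2-fold change in either direction.

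**Figure D1:**
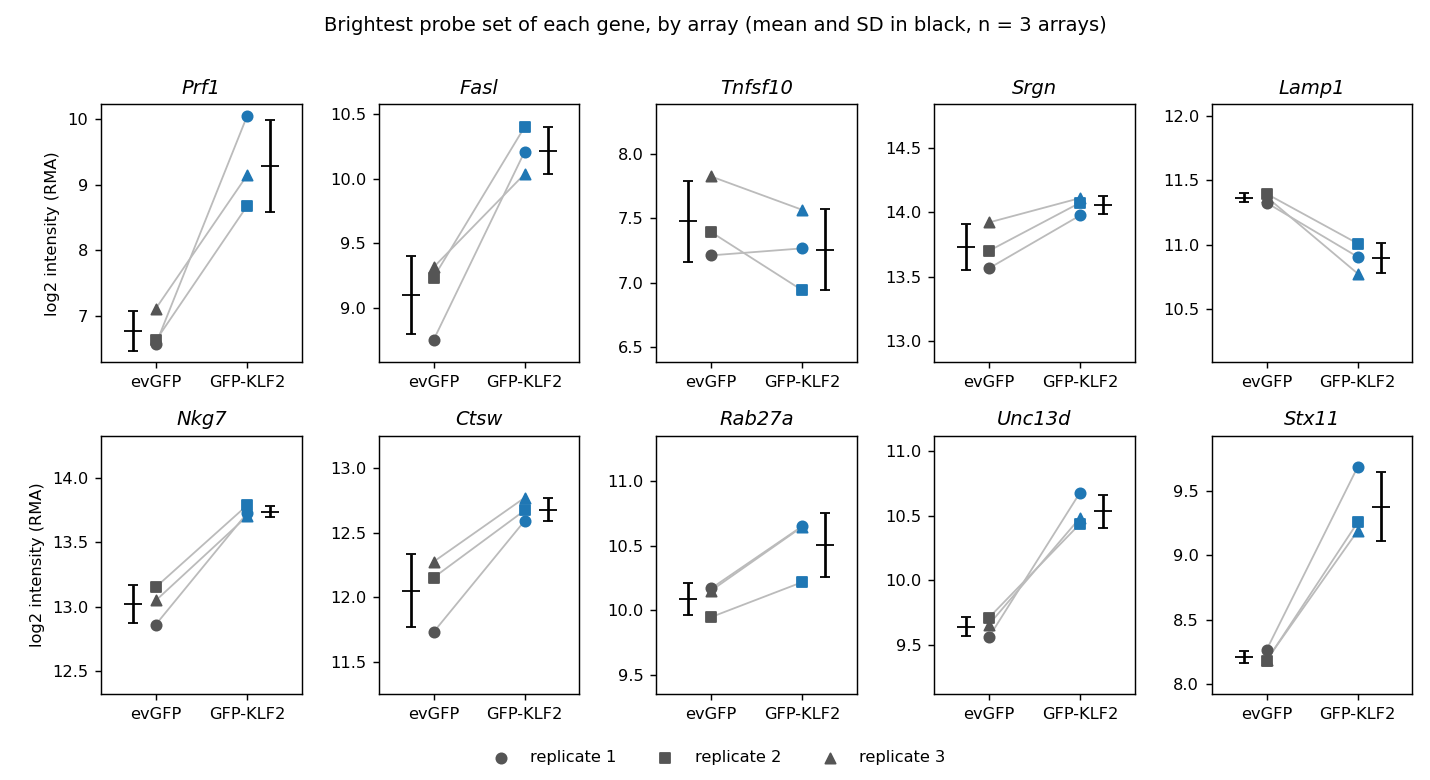
Log2 intensity (RMA) of the brightest probe set of each of the 10 genes in the 3 evGFP and 3 GFP-KLF2 arrays; grey lines join arrays with the same replicate number, black bars are mean and SD, and each panel has its own axis range of at least 2 log2 units. *Prf1* rose from 6.77 to 9.29 on average, *Lamp1* fell from 11.36 to 10.90, and the groups overlapped only for *Tnfsf10*.

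Among the genes of the granule's content and membrane, 2 rose, 1 fell and 1 did not pass. *Nkg7*, a membrane protein of cytotoxic granules required for their full release, read 12.86, 13.15 and 13.05 in evGFP and 13.73, 13.79 and 13.70 in GFP-KLF2 replicates 1, 2 and 3. The GFP-KLF2 arrays lay close together and above every control. The means were 13.02 ± 0.15 and 13.74 ± 0.04 (SD, n = 3), a log2 fold change of 0.72 (SE 0.09, 95% interval 0.50 to 0.93, adjusted p = 0.00444). This call held whichever array was left out (0.012 to 0.0216).

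*Ctsw*, a cathepsin-like protease found mainly in cytotoxic lymphocytes, read 11.73, 12.15 and 12.27 in evGFP and 12.59, 12.67 and 12.77 in GFP-KLF2 replicates 1, 2 and 3. The groups did not overlap, and the lowest control was replicate 1. The log2 fold change was 0.63 (SE 0.14, 95% interval 0.29 to 0.96, limma adjusted p = 0.0313), from means of 12.05 ± 0.29 and 12.68 ± 0.09 (SD, n = 3). The call was lost without evGFP replicate 2 (adjusted p = 0.0748), GFP-KLF2 replicate 1 (0.0731), GFP-KLF2 replicate 2 (0.0884) or GFP-KLF2 replicate 3 (0.084). With all arrays and the replicate block *Ctsw* passed (adjusted p = 0.00957).

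*Srgn*, the serglycin core protein, was among the brightest transcripts of the arrays at 13.57, 13.70 and 13.92 in evGFP and 13.98, 14.07 and 14.11 in GFP-KLF2 replicates 1, 2 and 3. All GFP-KLF2 arrays were above all controls, by a narrow margin over evGFP replicate 3. The log2 fold change of 0.32 (95% interval 0.08 to 0.57) did not pass (adjusted p = 0.0974), but passed with the replicate block (0.0428), with an intensity trend and robust prior (0.0416) and without evGFP replicate 3 (0.0376). The brightest probe sets of the 6 arrays reached 14.97 to 15.04, so *Srgn* lay close to the top of the measured range.

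*Lamp1*, the abundant lysosomal membrane glycoprotein whose appearance on the cell surface is used to detect degranulation, was the exception in direction. It read 11.33, 11.40 and 11.37 in evGFP and 10.91, 11.01 and 10.78 in GFP-KLF2 replicates 1, 2 and 3, so that every GFP-KLF2 array was below every control. The means of 11.36 ± 0.04 and 10.90 ± 0.12 (SD, n = 3) gave a log2 fold change of -0.47 (SE 0.08, 95% interval -0.66 to -0.27, limma adjusted p = 0.0142). Without evGFP replicate 2 (adjusted p = 0.0602) or GFP-KLF2 replicate 1 (0.0504) it did not pass. With all arrays and the replicate block it passed (0.0129).

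Of the 3 release genes, *Stx11* and *Unc13d* rose. *Stx11* probe set 1453228_at read 8.27, 8.18 and 8.19 in evGFP and 9.69, 9.26 and 9.19 in GFP-KLF2 replicates 1, 2 and 3. The controls were nearly equal and every GFP-KLF2 array was above them, for means of 8.21 ± 0.05 and 9.38 ± 0.27 (SD, n = 3). The log2 fold change was 1.17 (2.24-fold, SE 0.13, 95% interval 0.85 to 1.48, limma adjusted p = 0.00296). A dimmer *Stx11* probe set, 1457780_at, read 6.10, 6.34 and 6.47 against 8.04, 7.43 and 7.39 and rose by 1.32 (adjusted p = 0.00604). GFP-KLF2 replicate 1 was the highest array by both probe sets, as it was for *Prf1*.

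*Unc13d* read 9.56, 9.71 and 9.66 in evGFP and 10.68, 10.44 and 10.48 in GFP-KLF2 replicates 1, 2 and 3. The groups were clearly apart, with means of 9.64 ± 0.08 and 10.53 ± 0.13 (SD, n = 3). The log2 fold change was 0.89 (1.86-fold, SE 0.09, 95% interval 0.68 to 1.11) and the limma adjusted p, 0.00206, was the lowest of the 10 genes. *Unc13d* and both *Stx11* probe sets passed whichever array was left out.

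*Rab27a*, the small GTPase of granule docking, was less certain. Its brightest probe set, 1429123_at, read 10.17, 9.95 and 10.15 in evGFP and 10.65, 10.22 and 10.65 in GFP-KLF2 replicates 1, 2 and 3. Replicate 2 was the lowest array of each group, and the GFP-KLF2 value of that replicate was only just above the controls. The log2 fold change was 0.42 (95% interval 0.10 to 0.73, adjusted p = 0.097, and 0.0201 with the replicate block). It passed without GFP-KLF2 replicate 2 (0.0311) and with array weights (0.0416). The 3 dimmer *Rab27a* probe sets had log2 fold changes of 0.19, 0.16 and 0.21 for 1425284_a_at, 1425285_a_at and 1454438_at, and none passed (adjusted p = 0.338, 0.441 and 0.371). Over the mean of its probe sets the log2 fold change of *Rab27a* was 0.24 (adjusted p = 0.149).

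**Figure D2:**
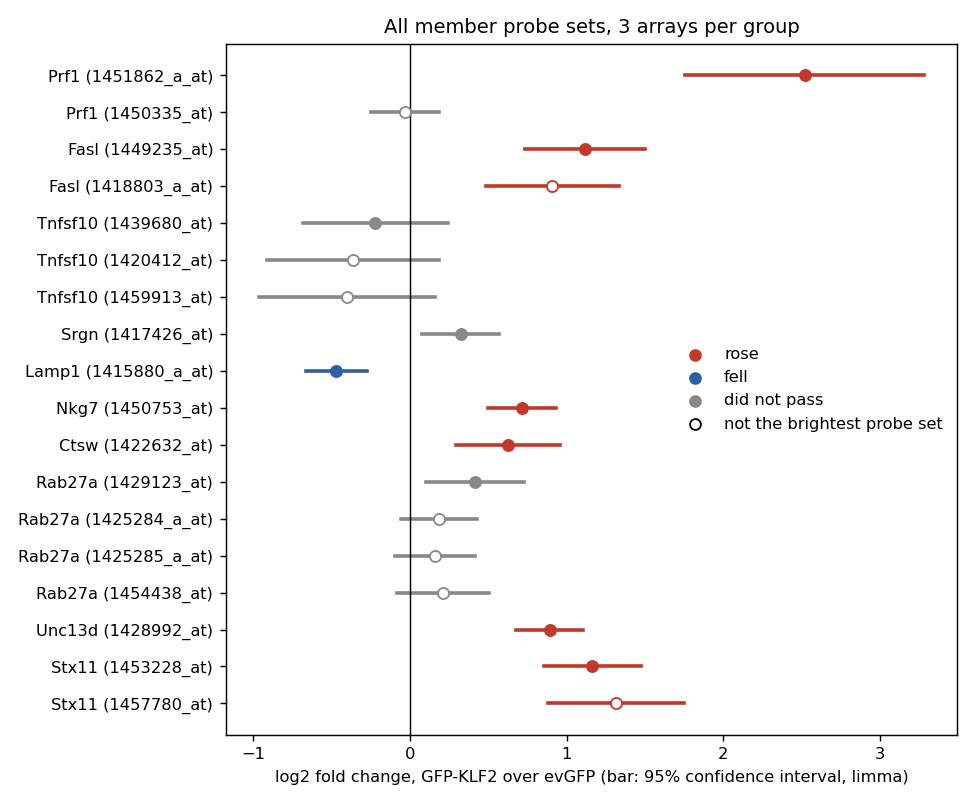
Log2 fold change (GFP-KLF2 over evGFP) of all 18 probe sets of the 10 genes, with the 95% confidence interval from limma; filled points are the brightest probe set of a gene. Of the 18 probe sets 8 rose, 1 fell and 9 did not pass, and the 2 *Prf1* probe sets gave 2.52 and -0.03.

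Seen over all members, 8 had every GFP-KLF2 array above every control, which 14.3% of all genes had, and 1 had every GFP-KLF2 array below, which 20.6% had. At an unadjusted p under 0.05, 8 members were higher and 1 lower, against 12% and 17.7% of all genes. Within arrays of the same replicate number, 9, 8 and 8 of the 10 genes were higher in GFP-KLF2 for replicates 1, 2 and 3. Of all 18193 genes, 8166, 8369 and 9051 were higher in these pairs. The difference was largest in replicate 1 for *Prf1*, *Fasl*, *Srgn*, *Nkg7*, *Ctsw*, *Unc13d* and *Stx11*. For a single value and 3 arrays per group the exact 2-sided permutation test over 20 splits cannot go below p = 0.1, which the brightest probe set of every member but *Tnfsf10* reached.

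**Figure D3:**
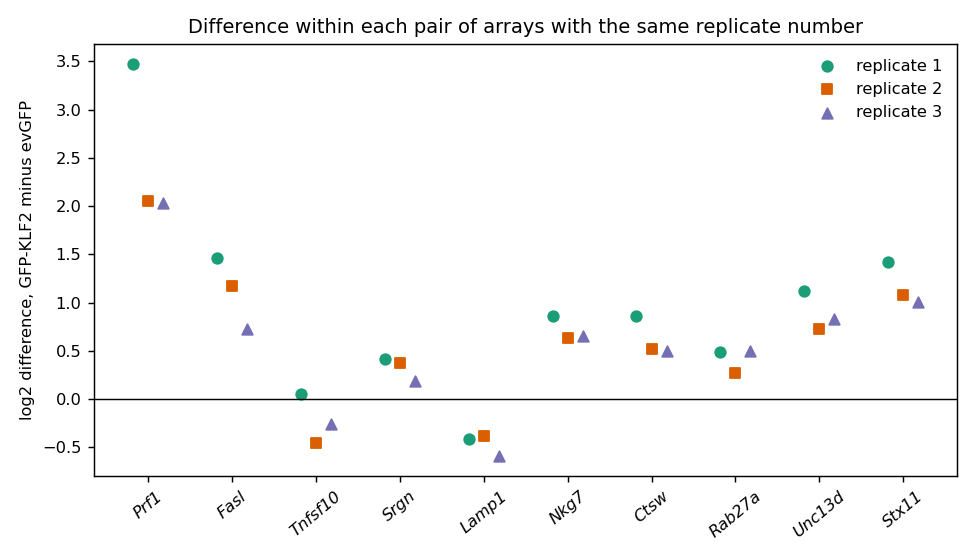
Difference in log2 intensity between the GFP-KLF2 and the evGFP array of the same replicate number, brightest probe set of each of the 10 genes. *Prf1* differed by 3.48 in replicate 1 and by 2.05 and 2.03 in replicates 2 and 3, *Lamp1* was negative in all 3, and *Tnfsf10* had both signs.

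The pattern over the 6 arrays was compared with that of *Prf1* as a description, since the 6 points share their groups and a gene that differs between the groups will resemble another that does. Pearson's r with *Prf1* was 0.98 for *Unc13d* and *Stx11*, 0.91 for *Nkg7*, 0.89 for *Fasl* and *Rab27a*, 0.85 for *Ctsw*, 0.79 for *Srgn*, -0.22 for *Tnfsf10* and -0.92 for *Lamp1*. The genes most like *Prf1* were *Slc2a1*, a glucose transporter (r = 0.997), *Itgb2*, the common chain of leukocyte integrins (0.996), *Bin3* (0.996), *Rhov* (0.995) and *Limk1*, a kinase of the actin cytoskeleton (0.995), and 244 genes had an r over 0.95. *Slc2a1*, *Itgb2* and *Limk1* rose, by 0.88, 0.87 and 0.51 on the log2 scale, whereas the log2 fold changes of *Bin3* (0.22) and *Rhov* (0.10) did not pass. *Rhov*, at 3.79 and 3.88, lay below the lower quartile of the arrays.

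The other proteins that move, dock and fuse granules included a few that changed with the members. Of 43 measured genes of the release machinery 7 rose and 1 fell, with a median log2 fold change of 0.09. This is 16.3% and 2.33% of the list, against 6.22% and 8.35% of all genes. With the block 9 rose and 2 fell, against 8.58% and 12.1% of all genes. The largest rise was that of *Sytl2*, a synaptotagmin-like protein that Rab27 recruits to granules: it read 8.66, 9.18 and 9.86 in evGFP and 10.89, 11.05 and 11.16 in GFP-KLF2 replicates 1, 2 and 3 (log2 fold change 1.80, SE 0.27, adjusted p = 0.00741). *Rab11a*, a GTPase of recycling endosomes (0.91, 0.0022), *Vamp3*, a SNARE of the same compartment (0.55, 0.00848), and *Dock2*, an activator of Rac (0.51, 0.0158), also rose. *Dock2* did not pass without evGFP replicate 2 (0.0574), GFP-KLF2 replicate 1 (0.0604) or GFP-KLF2 replicate 2 (0.0548), and other probe sets of it changed less: its log2 fold change was 0.37 (0.0523) over the mean of its probe sets and 0.27 (0.221) once probe sets marked as cross-hybridising were removed. With all arrays and the replicate block its brightest probe set passed (0.00719). The gene that fell was *Myo5a*, a myosin that carries vesicles (-0.42, 0.0135), and across the alternatives the count that fell was 0 to 3. *Sytl1* had a larger fall, -0.59, which did not pass (adjusted p = 0.133) but passed with the block (0.0185). *Unc13a* had a log2 fold change of 1.43 with overlapping groups, which did not pass either (0.0722) but passed with the block (0.0201). *Stxbp2*, which encodes the binding partner of syntaxin 11, read 9.90 ± 0.11 and 9.92 ± 0.11 (log2 fold change 0.03, adjusted p = 0.9), and *Rab27b*, the close relative of *Rab27a*, had a log2 fold change of 0.98 that did not pass (adjusted p = 0.095) but passed with the block (0.00462). Without evGFP replicate 1 or GFP-KLF2 replicate 2 the count that rose was 4, and without evGFP replicate 2 or GFP-KLF2 replicate 1 it was 3. *Myo5a* was not called without evGFP replicate 1 or 2 or GFP-KLF2 replicate 2.

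Among 22 other granule contents 4 rose and 2 fell (18.2% and 9.09%, the share that fell being near that of all genes), with a median of 0.22. The largest log2 fold change of the list, 2.55, was that of a gene that did not pass. *Ccl5*, a chemokine stored with granules (log2 fold change 1.84, adjusted p = 0.0237), *Ctsd*, an aspartic protease (1.16, 0.00303), *Gzmm*, a granzyme (1.15, 0.00806), and *Ctsc*, the protease that activates granzymes (0.72, 0.00571), rose. The study's gene table also lists *Gzmm*. *Ccl5* was lost without evGFP replicate 2 (0.0762), evGFP replicate 3 (0.0599), GFP-KLF2 replicate 1 (0.0819) or GFP-KLF2 replicate 2 (0.0757), and with an intensity trend and robust prior (0.0669). With all arrays and the replicate block *Ccl5* passed (adjusted p = 0.00155). *Il16*, a cytokine precursor, fell by 0.80 (adjusted p = 0.00124), or by 0.43 over the mean of its probe sets (0.00774), and *Ctss*, a cysteine protease, fell by 0.43 (0.0208). *Gzmb*, the main granzyme of activated cells, read 14.82 ± 0.06 and 14.81 ± 0.0044 (log2 fold change -0.01, adjusted p = 0.959), close to the highest values of the arrays. *Gzma*, another granzyme, had a log2 fold change of 1.30 with all GFP-KLF2 arrays above the controls, which did not pass (adjusted p = 0.0841) but passed with the block (0.0262). With the block 5 genes of the list rose and 2 fell, against 8.58% and 12.1% of all genes. The count that rose was 8 without evGFP replicate 3, and *Ctss* was not called when any of the 6 arrays was left out.

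Of 22 measured genes that build the glycosaminoglycan chains of serglycin and other proteoglycans 4 rose and 2 fell, with a median of 0.02. The share that rose was 18.2%, and the share that fell, 9.09%, was near the 8.35% of all genes. *Papss2*, which makes the sulphate donor (log2 fold change 1.49, adjusted p = 0.00924, from 4.17 ± 0.46 near the lower quartile of the arrays to 5.65 ± 0.28, but 0.54 and 0.0348 over the mean of its probe sets), *Chsy1*, a chondroitin synthase (0.64, 0.0161), *Csgalnact2*, which starts chondroitin chains (0.55, 0.0103), and *B3gat3*, which completes the linker to the core protein (0.51, 0.0135), rose. *Chst15*, a chondroitin sulphotransferase (-0.45, 0.0364), and *Slc35b2*, a carrier of the sulphate donor (-0.29, 0.0419), fell, but neither was called when any of the 6 arrays was left out or with the block (0.0462 and 0.0503). With the block 5 genes of the list rose and 3 fell, against 8.58% and 12.1% of all genes. Those that fell were *Papss1*, a relative of *Papss2* (log2 fold change -0.73, adjusted p = 0.0189 with the block), *Ugdh*, which makes the precursor of glucuronic acid (-0.59, 0.0088), and *Chst11*, a chondroitin sulphotransferase (-0.59, 0.0409). Leaving out GFP-KLF2 replicate 1 reduced the count that rose to 2, as *B3gat3* (0.0497) and *Chsy1* (0.0503) were lost. *Chsy1* also missed the threshold without evGFP replicate 2 (0.0533), GFP-KLF2 replicate 2 (0.052) or GFP-KLF2 replicate 3 (0.0464). With all arrays and the block *B3gat3* (0.0137) and *Chsy1* (0.00776) passed.

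The fall of *Lamp1* was set beside 35 other lysosomal membrane proteins and enzymes, of which 4 rose and 3 fell (11.4% and 8.57%, the latter near that of all genes), with a median of 0.08. With the block 7 of the 35 rose and 8 fell, both larger shares than the 8.58% and 12.1% of all genes. *Gusb*, beta-glucuronidase, fell by 0.91 (adjusted p = 0.0154), *Gaa*, acid alpha-glucosidase, by 0.58 (0.0107) and *Atp6v1h*, a subunit of the proton pump, by 0.50 (0.00854). *Atp6v0d1*, another subunit of that pump (0.70, 0.0124), *Npc2*, a cholesterol carrier (0.66, 0.013), *Ctsa*, a carboxypeptidase (0.43, 0.0249), and *Laptm5*, a membrane protein of blood cells (0.35, 0.0264), rose. *Gusb* was lost without evGFP replicate 1 (0.0495), evGFP replicate 2 (0.0547) or GFP-KLF2 replicate 1 (0.0575), and *Atp6v0d1* (0.0487) and *Npc2* (0.0463) without evGFP replicate 1. With all arrays and the block *Gusb* (0.00509), *Atp6v0d1* (0.00768) and *Npc2* (0.0074) passed. The count that rose was 0 without evGFP replicate 1, 2 without evGFP replicate 2, GFP-KLF2 replicate 2 or GFP-KLF2 replicate 3, and 7 without evGFP replicate 3.

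On the side of the death receptors, 3 of 18 measured genes rose and 2 fell, with a median of 0.09. This is 16.7% and 11.1% of the list, against 6.22% and 8.35% of all genes, the share that fell being near that of all genes. *Tnfrsf23*, a decoy receptor for TRAIL (log2 fold change 1.57, adjusted p = 0.0058), *Tradd*, an adaptor of TNF receptor 1 (0.83, 0.00848), and *Cflar*, which encodes the caspase 8 inhibitor c-FLIP (0.67, 0.00443), rose. *Tnfrsf23* was dim, with a mean under log2 6 over the arrays, and 2 genes of the list rose once such probe sets were removed. *Bid*, a pro-apoptotic protein cleaved by caspase 8 and granzyme B (-0.51, 0.00926), and *Dffb*, the nuclease that cuts DNA in apoptosis (-0.50, 0.0367), fell, and *Dffb* was lost in 5 of the 6 fits that left out an array, all but that without evGFP replicate 3. *Fas*, the receptor of Fas ligand, read 7.29 ± 0.49 and 7.66 ± 0.57 (log2 fold change 0.38), which did not pass (adjusted p = 0.56) but passed with the block (0.0264). With the block 6 genes of the list rose and 2 fell, against 8.58% and 12.1% of all genes.

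Of 5 other ligands of the TNF family 2 rose and 1 fell, which is 40% and 20% of this short list against 6.22% and 8.35% of all genes. *Tnfsf9*, the ligand of 4-1BB, read 6.38, 7.20 and 7.65 in evGFP and 9.58, 9.26 and 9.84 in GFP-KLF2 replicates 1, 2 and 3, a log2 fold change of 2.49 (SE 0.31, adjusted p = 0.00379). This was the largest change among the genes of the related lists that passed, the cell type markers given below left aside. *Tnfsf14*, also called LIGHT, rose by 1.25 (adjusted p = 0.00896). *Ltb*, lymphotoxin beta, fell by 0.46 (0.0411), a call that held only without evGFP replicate 3 among the fits that left out an array (0.014) and was otherwise lost, at 0.125 without evGFP replicate 1 or GFP-KLF2 replicate 1, 0.134 without evGFP replicate 2, 0.073 without GFP-KLF2 replicate 2 and 0.103 without GFP-KLF2 replicate 3. It was also lost with cyclic loess (0.0678) but passed with all arrays and the replicate block (0.0189).

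**Figure D4:**
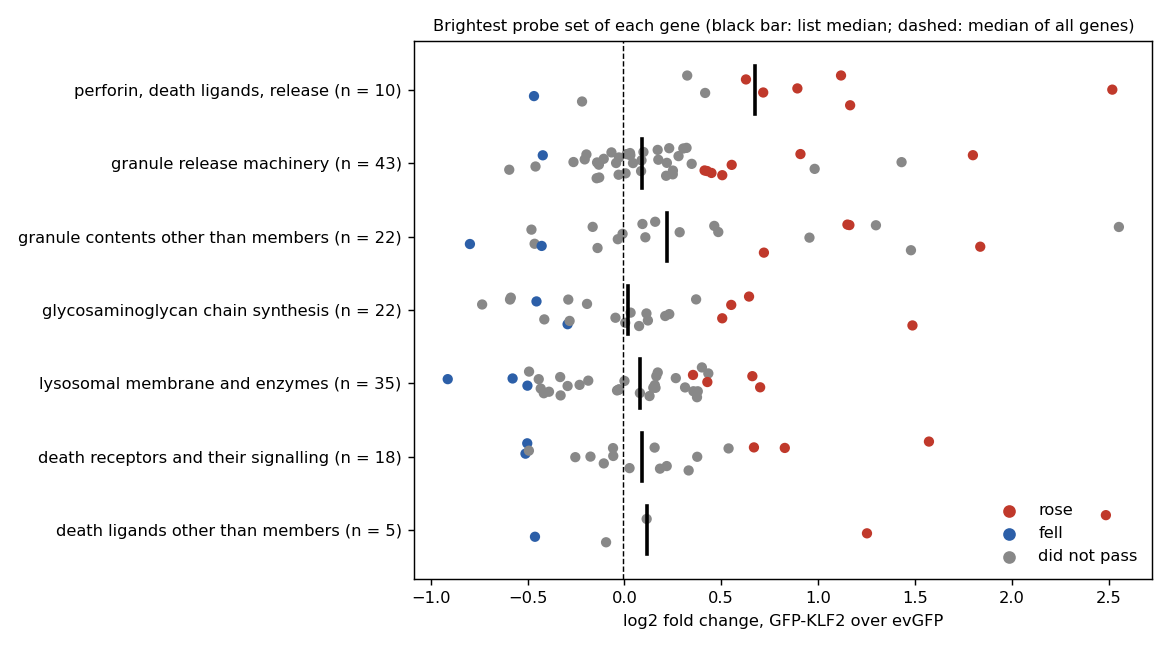
Log2 fold change (GFP-KLF2 over evGFP) of the brightest probe set of each gene, with the 10 followed genes in the top row and the 6 related lists below; colour gives the call, black bars the list medians and the dashed line the median of all genes. The median was 0.67 for the 10 genes and 0.02 to 0.22 for the other lists.

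Natural killer cells also express perforin and the genes of its release, so markers of other cells are given beside these results. None of the 7 measured CD8 T cell markers lay under the median probe set on every array, and their summed linear intensity was 46966 to 49774 in evGFP and 50477 to 53485 in GFP-KLF2 arrays. These ranges do not overlap. Of the 7 markers 1 rose (14.3%, against 6.22% of all genes), and their median log2 fold change was -0.08. The 8 measured NK cell markers summed to 355.9 to 752.9 and 504.8 to 718.7, ranges that overlap, and 4 of them lay under the median probe set on every array. *Ncr1*, the defining receptor of NK cells, was at 4.17 to 4.50 on the 6 arrays, near their lower quartile of 4.18 to 4.25. *Tyrobp*, an adaptor of NK and myeloid receptors, was the NK marker that rose, by 1.48 (adjusted p = 0.00235), and *Klre1*, a lectin-like NK receptor, passed with the block (log2 fold change 1.01, adjusted p = 0.17, and 0.0144 with it). Of the myeloid markers *Itgax* rose by 2.41 (adjusted p = 0.00379) and of the granulocyte and mast cell markers *Kit* by 3.38 (0.00625), and each was the only call of its list. These lists summed to 350.6 to 381.1 in evGFP against 502.8 to 669.5 in GFP-KLF2 arrays, and to 308.5 to 348.0 against 519.7 to 1120, ranges that do not overlap. Their median log2 fold changes were 0.12 and 0.01. Of their markers 5 of 8 and 11 of 12 lay under the median probe set on every array. B cell markers summed to 325.0 to 354.6 in evGFP and 326.5 to 458.4 in GFP-KLF2, and CD4 T cell markers to 151.1 to 177.8 and 168.9 to 175.7, with no call. The part of other cells in the rise of *Prf1* and its companions was not tested.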

How the data were processed

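RNA of 3 evGFP and 3 GFP-KLF2 samples was hybridised to Affymetrix 3' arrays. The deposited intensity values are the authors' RMA output, which is background-corrected, quantile-normalised and summarised per probe set, and the submitters' notes name RMA and limma without versions. These linear values were converted to log2. After 64 control probe sets were removed from 45101, limma 3.58.1 (R 4.3.3, with the package data.table at version 1.17.8) fitted 1 constant per group, with moderated variances, 2-sided tests and Benjamini-Hochberg adjustment over 45037 probe sets. Of these 34945 had 1 gene, 932 several and 9160 none. A gene is its brightest 1-gene probe set. The methods print the threshold as 0.046%, while the study's table holds larger p-values, so 0.046 was used and 0.00046 was an alternative. RMA equalises the distribution of intensity between arrays, so only changes relative to the other transcripts are seen. The labels call the replicates biological. The script was tested on simulated data holding known changes.

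The members and lists were chosen with earlier results of these data known. The genes to be named were all members, up to 4 genes per list (the largest changes that passed), the 5 genes most like *Prf1*, and *Klf2*. *Myo5a*, *Sytl1*, *Unc13a*, *Stxbp2*, *Rab27b*, *Ctsc*, *Ctss*, *Gzma*, *Gzmb*, *Chst11*, *Chst15*, *Papss1*, *Slc35b2*, *Ugdh*, *Atp6v1h*, *Ctsa*, *Laptm5*, *Dffb*, *Fas* and the marker genes were named after their values were seen. Genes of the lists that had no 1-gene probe set were not analysed here.

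The replicate numbers pair the arrays: over all probe sets, deviations from the group mean of arrays with the same number correlated at 0.33, 0.44 and 0.47, against -0.38 to 0.06 for different numbers. A blocked fit, with that number as a factor, was therefore run beside the unblocked one. Correlations between arrays were 0.993 to 0.996 within a group and 0.982 to 0.990 between groups. The 19 alternatives were other thresholds, the block, removal of dim or cross-hybridising probe sets, other ways of reading a gene, renormalisation (centring, loess or quantiles), limma's trend and robust options, array weights and leaving out each array. The number of arrays limits the precision.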

Additional observations from a re-analysis of the deposited data

How the results depend on the processing

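Of the 10 genes 6 rose and 1 fell, and of the 145 genes of the related lists 24 rose and 11 fell. Over all genes 6.22% rose and 8.35% fell, so the share of list genes that fell was near that of all genes. At an adjusted p under 0.00046 (limma), 0 members rose and 0 fell, and 0 list genes rose and 0 fell, against 8 higher and 1 lower member and 41 higher and 23 lower list genes at an unadjusted p under 0.05 (12% and 17.7% of all genes). With a 2-fold threshold as well, 3 members rose and 0 fell, and 8 list genes rose and 0 fell. Of all 18193 genes, 405 (2.23%) rose and 130 fell by that rule. With the replicate block that follows from the pairing, 8 members rose and 1 fell, and 34 list genes rose and 18 fell (8.58% and 12.1% of all genes). It changed the calls of *Srgn* and *Rab27a* and of no other member's brightest probe set. Cyclic loess left 7 list genes that fell. Reading a gene from the mean of its probe sets made the changes of *Prf1*, *Rab27a*, *Papss2* and *Il16* smaller and changed none of their calls. Leaving out each array in turn gave 5 to 7 members that rose and 0 to 1 that fell (0 without evGFP replicate 2 or GFP-KLF2 replicate 1), and 16 to 34 list genes that rose and 4 to 8 that fell. The share of all genes called in each of these fits was not counted, so whether such shifts are particular to these genes cannot be told. The list genes that rose were fewest without evGFP replicate 2 or GFP-KLF2 replicate 1, and those that fell without evGFP replicate 2. The log2 fold change of the dimmer *Prf1* probe set, -0.03 in all arrays, ran from -0.10 to 0.033 when an array was left out and was above 0 without evGFP replicate 2 (0.0068) or GFP-KLF2 replicate 1 (0.033). The cause of these changes was not tested. The other alternatives left the 10 members' calls as they were, except that *Srgn* passed with the intensity trend and robust prior and *Rab27a* with array weights. Signal near the ends of the measured range limits what can be seen for the dimmest probe sets and for the brightest, such as *Srgn* and *Gzmb*.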
